A study of Rattus norvegicus with 2 samples.

Results

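The genes of antibody-secreting plasma cells and of the secretory machinery of the endoplasmic reticulum (ER) were examined in rat spleen. The members were a list of 47 gene symbols, and they were found by matching these symbols to the transcript clusters of the array. Of the 47, 41 were measured under their symbol, among 15037 genes with a name. Each was represented by a single transcript cluster, which is a set of short probes against the transcripts of a gene. Jchain, Derl2, Sec62, Edem1, Manf and Srp54 were not measured under these symbols and are not analysed here, although Srp54a, which RefSeq lists with Srp54 as an older symbol, is given separately.

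Total RNA came from spleen tissue of male rats, 1 sample after intraperitoneal cocaine (50 mg/kg daily for 7 days) and 1 control sample, and how many animals each sample holds is not given in the sources used. The methods describe late adolescent Sprague-Dawley rats, saline injection of the controls and removal of the organs on the day after the last injection. The control sample is titled as not stimulated, but its treatment label repeats the cocaine protocol, so its identity as control rests on its title, the series design and the methods. Each RNA was hybridized to 1 Clariom S array, and the deposited values were log2 signals.

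Proteins that are to be secreted enter the ER while they are being made. The signal recognition particle binds the signal sequence and brings the ribosome to the Sec61 channel, the signal peptidase removes the signal sequence, and chaperones and disulfide isomerases fold the chain. Plasma cells, which lie in the red pulp of the spleen, expand this machinery to release antibody, and the transcription factor Xbp1 is known for driving that expansion.

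All differences were taken as cocaine minus control on the log2 scale, where 1 stands for a doubling of the signal. With 1 array per group there was no replicate, no error and no test, and precision is limited by the number of arrays. The median signal was 6.97 on both arrays. The brightest of 23 background features reached 7.76 on both arrays, and a signal under it is described as within background. Of the 41 members, 37 had both signals above this level and 3 (Prdm1, Sdc1 and Derl3) had both within background. No member was at the ceiling of an array. Because bulk tissue was measured, fewer cells of a type and less RNA per cell cannot be told apart.

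Most of the measured members had somewhat higher signals in the cocaine sample. Of the 41, 27 (65.9%) had a difference above 0, against 53.2% of all named genes. At least 2-fold higher signals were found for 6 members (Erp27, Creld2, Pdia4, Txndc5, Spcs3 and Mzb1), which is 14.6% of those measured, against 2.28% of all named genes. At least 2-fold lower was 1 member, Sec61g (2.44%), against 4.97% of all named genes. The median difference of the members was 0.34, or 1.27-fold, and that of all named genes was 0.04. After a loess correction for signal these medians were 0.20 and -0.02. Most members gave signals well above background, where differences between the arrays were distributed in another way than among dim genes. Of the 2200 named genes with a mean signal from 10 to 12, 2.32% passed 2-fold in the higher and 8.23% in the lower direction. Their median was 0.00, while the 15 members of this range had a median of 0.25. From 12 to 14, the 1008 named genes had a median of 0.03 and the 13 members a median of 0.37. For signals from 8 to 10, the medians were -0.02 for all named genes and 0.78 for 5 members. Few members were among the brightest genes. From 14 to 16, the single member, Sec61g, had -1.58 against a median of 0.06, and from 16 to 18, 3 members had a median of -0.03 against 0.22. These 3 were Calr (0.34), Pdia3 (-0.03) and Canx (-0.38).

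**Figure D1:**
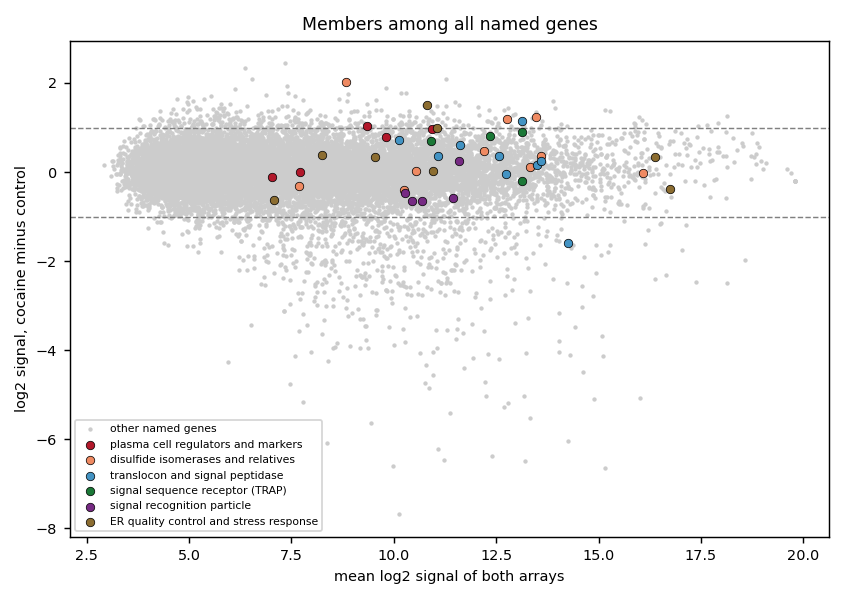
Difference between the arrays (log2 signal, cocaine minus control) against the mean log2 signal of both arrays for all 15037 named genes (grey) and the 41 measured members (coloured by role), with dashed lines at 2-fold. Most coloured points lie above 0, with Sec61g below the lower line and the long tail of lower genes holding no other member.

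The 5 measured plasma cell regulators and markers divided into 3 with higher signals and 2 that were within background. Mzb1, an ER protein of B cells and plasma cells that assists the assembly of IgM, had signals of 9.87 (cocaine) and 8.83 (control), which is 2.06-fold higher. Xbp1, the transcription factor of the unfolded protein response, had signals of 11.41 and 10.45, a difference of 0.97 and just short of 2-fold. Irf4, a transcription factor needed for plasma cells to form, had signals of 10.19 and 9.42, a difference of 0.78. These 3 genes thus differed in the same direction and by similar amounts. Prdm1, which encodes the repressor Blimp-1 that ends the B cell program, had a signal of 7.72 on both arrays. Sdc1, the surface proteoglycan CD138 by which plasma cells are often recognized, had signals of 6.96 and 7.08. Both lay within background, so that 2 defining markers of plasma cells gave no usable signal in either sample. The median of the 5 was 0.78.

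A wider list of 13 plasma cell markers had 9 measured genes, the 5 members included. Its median difference was 0.14 over all 9 and 0.46 over the 6 that were above background on an array. Of these 6, the members Mzb1, Xbp1 and Irf4 had the higher differences given above. The kinase Pim2 (0.14), Fkbp11 (0.12) and Pou2af1 (0.06), which are not members, stood close to 0. The summed linear signal of the 9 was 8802 against 6293. B cell markers, measured for 9 of 12 genes and all above background, had a median of 0.20, with 5 above 0 and 4 below. Their summed linear signal was 176868 against 118188, to which the brightest genes, Cr2 and Cd79b, contributed most. The complement receptor Cr2 (16.20 against 15.32) and the B cell receptor chain Cd79b (15.72 against 15.08) were among the higher ones, as was the kinase Blk (11.42 against 10.90), and the low-affinity IgE receptor Fcer2 was lower (10.32 against 11.25). None of these 9 genes was past 2-fold. The part of B cell number in the values of Mzb1, Xbp1 and Irf4 was not tested. Of the immunoglobulin genes on the list, only the surrogate light chain gene Igll1 was measured under its symbol, with both signals within background, so that antibody transcripts themselves are not analysed here.

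**Figure D2:**
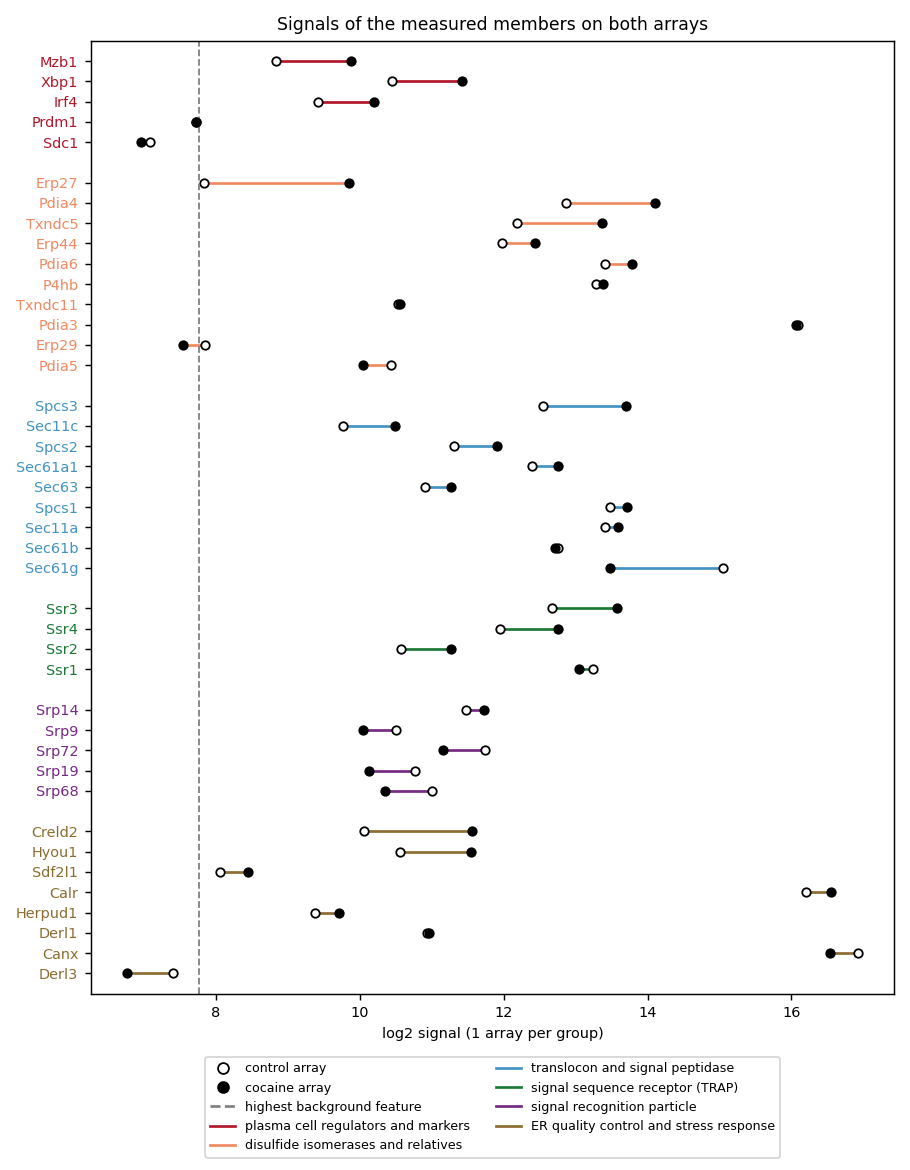
Log2 signals of the 41 measured members on the control array (open circles) and the cocaine array (filled circles), grouped and coloured by role, with the highest background feature as a dashed line. Erp27 and Creld2 show the longest lines to the right and Sec61g the longest to the left, while Prdm1, Sdc1 and Derl3 lie entirely left of the dashed line.

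Among 10 disulfide isomerases and their relatives, 3 (30%) were at least 2-fold higher with cocaine, against 2.28% of all named genes. The lower ones all stayed within 2-fold. The median was 0.24, or 0.14 after the loess correction. Erp27, a relative of protein disulfide isomerase that lacks the catalytic cysteines and binds Pdia3 (known from the human protein), had signals of 9.85 (cocaine) and 7.83 (control). This difference of 2.02, or 4.06-fold, was the highest of all members and the 5th highest of the 15037 named genes. The control signal lay only slightly above the highest background feature. Pdia4 (ERp72), an isomerase with several thioredoxin-like domains, had signals of 14.10 and 12.86, or 2.36-fold higher. Txndc5, a further isomerase that is abundant in plasma cells, had signals of 13.37 and 12.18, or 2.27-fold higher. The other 7 were within 2-fold, and the best known of the family stood close to 0. P4hb, the protein disulfide isomerase itself, had signals of 13.39 and 13.28. Pdia3 (ERp57), which acts on glycoproteins together with calnexin and calreticulin, had signals of 16.06 and 16.09, and Txndc11 had signals of 10.56 and 10.53. Erp44, which retains IgM subunits that are not yet assembled, had a difference of 0.47, and Pdia6 had one of 0.37. Pdia5 (-0.40) and Erp29 (-0.31) had lower signals, and that of Erp29 with cocaine (7.54) was within background, which leaves a difference of at least 1.07-fold.

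Erp27 is abundant in the exocrine pancreas, which lies next to the spleen. Of 16 measured genes of pancreatic acinar cells, 1 was above background on an array, the trypsinogen Prss2 (8.24 against 7.78), and the summed linear signal of the 16 genes was 1149 against 1145. None of them was past 2-fold. Apart from Prss2, all of these acinar genes were within background on both arrays. The part of pancreatic tissue in the value of Erp27 was not tested. Of 11 measured hepatocyte genes, only Ttr was above background on an array (8.57 against 6.12, at least 1.75-fold).

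The translocon and the signal peptidase complex held the lowest difference of all members as well as several higher ones. Of 9 measured genes, 7 (77.8%) had a difference above 0, against 53.2% of all named genes, and the median of the 9 was 0.36. The Sec61 channel is built from 3 subunits, and these differed from each other. Sec61a1, which forms the pore, had signals of 12.75 with cocaine and 12.39 in the control (0.36). Sec61b had signals of 12.71 and 12.75 (-0.04). Sec61g, the small subunit that clamps the pore, had signals of 13.47 and 15.05, a difference of -1.58 or a 2.99-fold lower signal. The subunits of one complex were thus higher, level and lower on the same arrays. Sec63, which couples the channel to the chaperone BiP, had a difference of 0.36.

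All 5 measured subunits of the signal peptidase had higher signals in the cocaine sample. Spcs3, a subunit that the enzyme needs for activity, was 2.23-fold higher (13.70 against 12.54). Sec11c, 1 of the alternative catalytic subunits, had a difference of 0.72 (10.49 against 9.77), while the other, Sec11a, had one of 0.17 (13.58 against 13.41). Spcs2 was 1.52-fold higher and Spcs1 1.18-fold. The signal sequence receptor (TRAP), a complex of 4 proteins beside the channel, had 3 members with similar higher signals. Ssr3 had signals of 13.58 and 12.67 (0.91), Ssr4 of 12.76 and 11.95 (0.81) and Ssr2 of 11.26 and 10.57 (0.69). Ssr1, the alpha subunit, stood apart with 13.04 and 13.24 (-0.19). The median of the 4 was 0.75, and none was past 2-fold.

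The signal recognition particle was the only group of members with a median below 0. Its 5 measured protein genes had a median of -0.59, and 4 of them had lower signals in the cocaine sample, all within 2-fold. The share with a difference above 0 was 20%, against 53.2% of all named genes. Srp68 (10.35 against 11.01) and Srp72 (11.15 against 11.74), which bind the particle's RNA as a pair, had differences of -0.65 and -0.59. Srp19, which helps to assemble the particle, had signals of 10.12 and 10.76 (-0.64). Srp9 and Srp14 form the part that slows translation, and they differed in opposite directions, with -0.47 for Srp9 and 0.25 for Srp14. Srp54a, the GTPase that recognizes the signal sequence, had signals of 11.31 and 11.60 (-0.29), and with it the median of the group was -0.53. The step before the channel thus had mostly lower signals, while the receptor and peptidase at the channel had mostly higher ones. No test of the difference between these groups was possible.

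**Figure D3:**
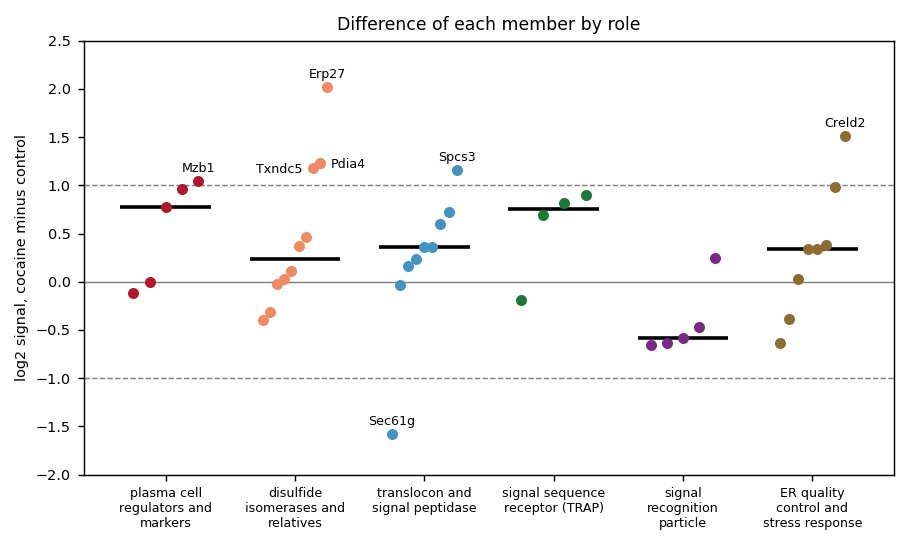
Difference of each measured member (log2 signal, cocaine minus control) by role, with the median of each role as a black bar and dashed lines at 2-fold. The bar of the signal recognition particle lies at -0.59 and those of the other 5 roles between 0.24 and 0.78.

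The genes of erythroid cells, of which the rat spleen holds many, had much lower signals with cocaine. All 10 erythroid markers passed 2-fold in the lower direction. Above background on both arrays were 7 of them, Tfrc, Alas2, Car2, Car1, Slc4a1, Sptb and Ahsp, which were from 17.1-fold (Tfrc) to 89.0-fold (Ahsp) lower. The cocaine signals of Gata1, Rhag and Epb42 were within background, and these genes were at least 3.34-fold, 46.3-fold and 73.7-fold lower. The summed linear signal of the 10 was 26592 against 923385. Sec61g and the signal recognition particle were lower in the same sample, and the part of the erythroid cells in these values was not tested.

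ER quality control and the stress response were represented by 8 genes, with a median of 0.34 (0.22 after the loess correction). Of these, 6 (75%) had a difference above 0, against 53.2% of all named genes. Creld2, an ER stress-induced protein with disulfide isomerase activity, had signals of 11.56 (cocaine) and 10.05 (control), or 2.85-fold higher, and followed Erp27 as the next highest member. Hyou1, an Hsp70 relative that assists BiP, had signals of 11.54 and 10.55, which is 1.98-fold. Both are ER stress-induced genes, but others of this kind differed less. Sdf2l1 had signals of 8.44 and 8.05 (0.38) and Herpud1, which takes part in ER-associated degradation, had signals of 9.71 and 9.37 (0.34). The lectin chaperones of newly made glycoproteins differed in opposite directions. Calr (calreticulin) had signals of 16.55 and 16.21 (0.34), and Canx (calnexin) had signals of 16.54 and 16.92 (-0.38). Of the derlins, which act in the export of misfolded proteins, Derl1 had signals of 10.96 and 10.93, and Derl3 (6.77 and 7.40) was within background on both arrays.

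Genes of the unfolded protein response carry known elements before their start, and the promoters of the members were searched for them on both strands. RefSeq windows (build GRCr8) from 250 bases before to 50 bases after the gene start were held for 39 of the 47 members, and not for Mzb1, Pdia3, Pdia6, Erp27, Derl1, Sec61a1, Srp54 and Manf. The ER stress element, which consists of CCAAT and CCACG with 9 bases between them, was found in 22 of 33469 windows (0.0657%). It was present in 5 of the 39 members, Xbp1, Creld2, Calr, Canx and Derl3, and in 4 of 171 genes of the other secretory pathway lists, Hspa5, Hsp90b1, Dnajc3 and Ero1b. The elements of the 5 members and of the 2 other genes past 2-fold are shown because they are what these members share in sequence, with the element in capitals and up to 20 bases on each side, 5′ to 3′ on the strand of the gene. Where the element lies on the other strand it reads CGTGG first and ATTGG last.
Xbp1 (chr14:84604538-84604596, plus strand, element from -65 to -47 of the gene start): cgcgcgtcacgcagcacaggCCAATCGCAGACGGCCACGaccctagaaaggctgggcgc
Creld2 (chr7:121789219-121789277, plus strand, other orientation, -145 to -127): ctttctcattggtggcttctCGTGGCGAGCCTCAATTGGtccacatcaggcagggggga
Calr (chr19:40213117-40213173, plus strand, other orientation, -232 to -214): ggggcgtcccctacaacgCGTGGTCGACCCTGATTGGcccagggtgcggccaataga
Canx (chr10:35158049-35158107, minus strand, -230 to -212): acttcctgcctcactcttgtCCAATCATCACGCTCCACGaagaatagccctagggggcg
Derl3 (chr20:12766581-12766639, minus strand, other orientation, -154 to -136): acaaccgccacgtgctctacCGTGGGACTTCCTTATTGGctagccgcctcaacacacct
Dnajc3 (chr15:102432514-102432572, plus strand, -133 to -115): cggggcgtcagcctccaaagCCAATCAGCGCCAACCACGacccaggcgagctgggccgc
Ero1b (chr17:92941438-92941496, plus strand, other orientation, -224 to -206): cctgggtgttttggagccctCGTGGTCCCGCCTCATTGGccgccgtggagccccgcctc

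The genes with this element did not differ by a common amount. Among the members, the differences were 1.51 for Creld2, 0.97 for Xbp1, 0.34 for Calr, -0.38 for Canx and -0.63 for Derl3, the last within background. Of the other genes, named here for their element, Ero1b (10.11 against 8.58) and Dnajc3 (10.98 against 9.90) were 2.89-fold and 2.12-fold higher. Hsp90b1 (GRP94) had a difference of 0.68 (16.27 against 15.59) and Hspa5 (BiP) one of 0.16 (15.44 against 15.28). Across these 9 genes, 7 had the higher signal with cocaine, 3 of them by at least 2-fold. The other 2 were lower by less than 2-fold, and the median was 0.68. Of all named genes, 53.2% had a difference above 0 and 2.28% were at least 2-fold higher. Measured genes with the element outside the lists differed in both directions and are given under the other observations. Of the 6 members that were at least 2-fold higher, 4 had a promoter window and 1 of these, Creld2, held a match to any of the elements searched.

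A second form of the element, ATTGG and CCACG with 1 base between them, was searched after the first had been seen, and it was found in 17 of 33469 windows (0.0508%), those of Herpud1, Hyou1 and, among the other lists, Dnajb11 included. The binding site of Xbp1 known as TGACGTGG was found in 199 windows (0.595%), with Hyou1, Txndc11 and Srp19 among the members. These 3 members had differences of 0.99, 0.03 and -0.64. Hyou1 is shown because its window held 3 matches, of which the first, TGACGTGG, overlaps the next, and the capitals mark all 3. A match is a description of the letters and does not show that a factor binds there.
Hyou1 (chr8:53602671-53602824, plus strand): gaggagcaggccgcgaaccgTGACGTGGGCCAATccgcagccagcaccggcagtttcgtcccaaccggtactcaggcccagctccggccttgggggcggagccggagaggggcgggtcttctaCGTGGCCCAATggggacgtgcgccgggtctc
Herpud1 (chr19:10614801-10614851, minus strand, -124 to -114): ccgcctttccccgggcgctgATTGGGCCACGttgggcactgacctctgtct

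**Figure D4:**
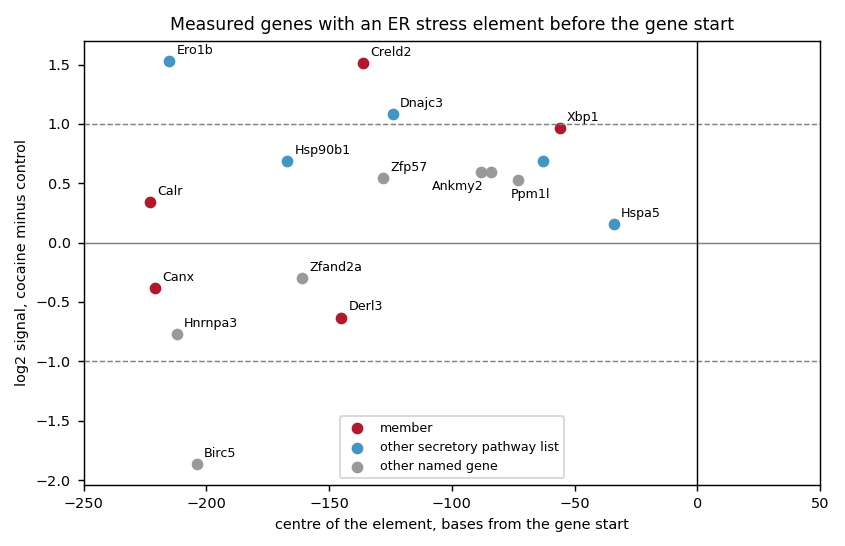
Difference between the arrays (log2 signal, cocaine minus control) against the position of the ER stress element relative to the gene start, for each measured gene with the element, with members in red, genes of the other lists in blue, other named genes in grey and dashed lines at 2-fold. The members range from 1.51 (Creld2) to -0.63 (Derl3), and Birc5, which is no gene of the lists, lies lowest at -1.87.

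The rest of the secretory pathway was read from 7 further lists and the immunoglobulin list, together 176 measured genes. Past 2-fold were 7 with a higher signal (3.98%) and 5 with a lower one (2.84%), and the median was 0.11. Other ER chaperones had a median of 0.24 over 26 genes, with 21 above 0. Past 2-fold were 2 genes, both of them higher. The highest were Dnajc3, a co-chaperone of BiP, and Sil1, its nucleotide exchange factor (8.36 against 7.28), of which the control signal of Sil1 was within background, so that it was at least 1.52-fold higher. The prolyl isomerase Fkbp14 (0.96) and the collagen chaperone Serpinh1 (0.81) followed, both within 2-fold. Other disulfide bond enzymes had a median of 0.16 over 17 genes and of 0.53 over the 13 that were above background on an array. Both medians include the caspase Casp12 (8.40 against 7.82), which is not a disulfide bond enzyme. Past the threshold, 2 were at least 2-fold higher, the oxidase Ero1b, which recharges protein disulfide isomerase, and the membrane thioredoxin Tmx1 (12.06 against 10.89). Selenof (0.69) was within 2-fold, and Qsox2, whose control signal was within background, was at least 1.12-fold higher.

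In the other translocation genes, 1 of 19 (5.26%) was at least 2-fold higher, against 2.28% of all named genes, and the median was 0.19. This gene was Ostc, a subunit of the oligosaccharyltransferase at the channel (10.57 against 9.39). Camlg, with a control signal within background, was at least 1.04-fold higher. Of the ER membrane protein complex, Emc3 had a difference of -0.72, and Emc1, with a cocaine signal within background, was at least 1.58-fold lower. For N-glycosylation the median was 0.06 over 30 genes, and the glucosyltransferase Alg8 was 2.21-fold lower (7.98 against 9.12). Alg11 (0.85), Mgat2 (0.66) and Alg5 (0.66) had higher signals. Transport from the ER to the Golgi had a median of 0.14 over 39 genes, with the cargo receptors Tmed5 (11.66 against 10.46) and Tmed7 (12.83 against 11.70) 2.29-fold and 2.20-fold higher. Arf4 (0.99) and the SNARE Bet1 (0.94) were just within 2-fold.

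Degradation and stress signaling both had medians below 0. ER-associated degradation had a median of -0.13 over 27 genes, with 2 (7.41%) at least 2-fold lower, against 4.97% of all named genes. These were the ubiquitin ligase Rnf5 (6.99 against 8.43, the former within background, at least 1.60-fold) and the rhomboid protease Rhbdd1 (8.81 against 9.92). The ligase Rnf139 had a difference of -0.68 and Edem2, which marks misfolded glycoproteins, one of 0.71. The list of stress sensors, their transcription factors and genes downstream of them had a median of -0.03 over 17 genes. Over the 13 that were above background on an array the median was -0.19. The 2 genes past 2-fold (11.8%) were both lower, against 4.97% of all named genes, and neither encodes a sensor or a transcription factor. They belong to the branch that runs through translation control. Asns, asparagine synthetase and a target of Atf4, was 12.1-fold lower (9.88 against 13.48). Ppp1r15a (GADD34), which restores translation after stress, had signals of 6.78 and 9.47, the former within background, and was at least 3.28-fold lower. Atf4 itself was within 2-fold (15.03 against 15.59), and the oxidative stress factor Nfe2l2 had a difference of 0.44. Of the 17 genes of this list, 7 had a difference above 0 and 10 had one below 0. Ddit3, above background on both arrays, was among the higher ones (9.05 against 8.79). The higher signals of Creld2, Hyou1 and Pdia4 were thus measured beside lower signals of Asns and Ppp1r15a, but not of every gene of the list.

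**Figure D5:**
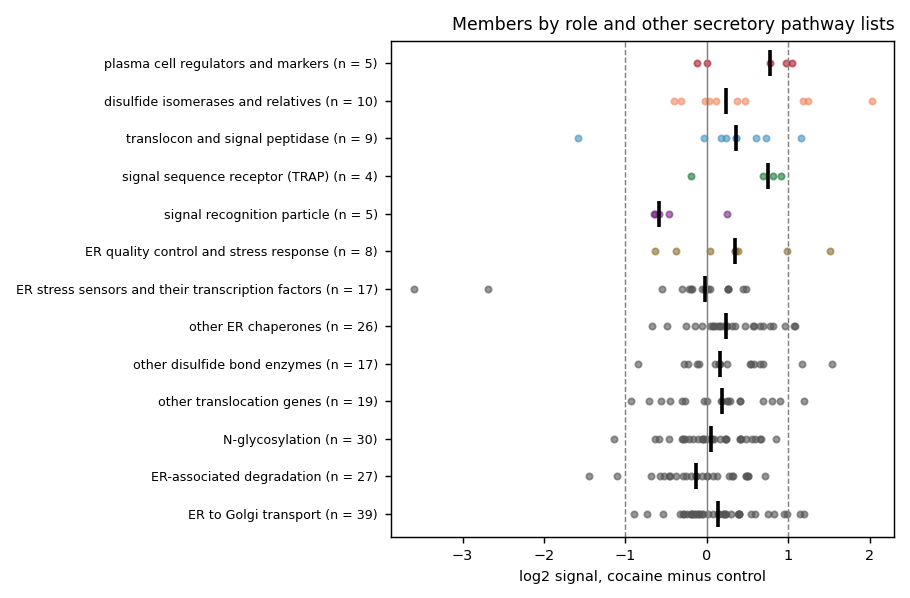
Difference of each measured gene (log2 signal, cocaine minus control) in the 6 role groups of the members (coloured) and in 7 further lists of the secretory pathway (grey), with the median as a black bar, n as the number of measured genes and dashed lines at 2-fold. The medians of the further lists lie between -0.13 and 0.24, and the gene farthest to the left is Asns.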

How the data were processed

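RNA was purified and hybridized by the authors to Clariom S rat arrays, and the deposited table held log2 signals per feature as summarised by them. How background was corrected and arrays were normalized is not given in the sources used, and no further normalization was applied. No column was set aside (0 unused), and 1646 control features among the 24834 were excluded. Transcript clusters were named from the platform annotation, with 1 symbol each for 15049 clusters and none for 8139. For a gene with several clusters the one with the highest mean signal was taken.

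The log2 difference between cocaine and control was computed, and genes past 2-fold were counted, as in the study. With 1 array per group, no test was possible. Named were every measured member and, of each further list, the up to 4 genes with the largest absolute difference that were above background on an array, together with any such gene past 2-fold. The same rule was used for the cell type markers. Genes named for a promoter element, and Igll1, Fkbp11, Pou2af1, Ddit3 and Casp12, were named outside this rule. Members and lists were chosen with earlier results of these data known. Where only one signal of a listed gene was within background, the fold left after raising it to the highest background feature is given as a lower bound.

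Alternatives were 4 scalings (median centring, 75th percentile centring, quantile normalization and a loess correction with a span of 0.3), a filter, a floor, a 1.5-fold threshold and the mean over clusters. Counting Srp54a as a member and the second promoter element were added after the data were seen. Promoter windows were taken to lie on the strand of the gene, since all 1456 overlapping windows of opposite strands were reverse complements. Protein sequences were not used here. The counting was tested on simulated data with known differences, which it recovered. Python 3.11.15, numpy 2.4.6, pandas 2.3.3, statsmodels 0.14.6 and matplotlib 3.10.9 were used.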

Additional observations from a re-analysis of the deposited data

How the results depend on the processing

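The direction of the member median and of the median of each role was kept under every alternative run. The median of the members was 0.20 in place of 0.34 after the loess correction for signal, which also moved the median of the isomerases from 0.24 to 0.14 and that of quality control from 0.34 to 0.22. Quantile normalization moved the median of the plasma cell genes to 0.88 and that of the isomerases to 0.34. At 1.5-fold, 14 members were higher and 5 lower, in place of 6 and 1 at 2-fold. The share of all named genes past 1.5-fold was not computed, so these counts have no background beside them. Derl3, which is among the 5, was within background on both arrays. The scalings moved the median of all named genes by less than 0.1. Xbp1 and Hyou1 passed 2-fold with 75th percentile centring (1.06 and 1.08) and with quantile normalization (1.07 and 1.08), giving 8 members at least 2-fold higher. The share of all named genes at least 2-fold higher also rose, from 2.28% to 3.38% with 75th percentile centring and to 2.61% with quantile normalization. No member past 2-fold fell below it under any alternative scaling, filter or floor. Of the other named genes, Sil1 (0.60) and Rnf5 (-0.68) fell within 2-fold with the background floor, and Rhbdd1 (-0.997) just within it with quantile normalization. Bet1, Arf4 and Fkbp14 passed it with 75th percentile centring and quantile normalization. The cause of these changes was not tested. A single array per group limits every value, and signals within background limit Prdm1, Sdc1, Derl3 and Erp29 further.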

Other observations

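The ER stress element was also found before 12 genes outside the lists. Of these, Birc5, which encodes the mitotic protein survivin, had signals of 10.59 (cocaine) and 12.46 (control), a difference of -1.87. Hnrnpa3 had a difference of -0.77 (15.71 against 16.48) and Zfand2a one of -0.30 (7.25 against 7.56, both within background). Ankmy2 had a difference of 0.59 (11.42 against 10.83). Ppm1l had signals of 8.27 and 7.74, the latter within background. Zfp57 had a difference of 0.54 with both signals within background. These genes were named after their values were seen.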
